A study of Rattus norvegicus with 3 samples.

Results

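Autophagy factors and lysosomal proteins were examined in rat soleus, a slow postural muscle of the hind limb, after loss of its nerve or of its load. The set holds 30 genes chosen by name, with earlier results of these data known. They are factors that build the autophagosome, cargo and mitophagy receptors, the transcription factor Tfeb, cathepsins, lysosomal membrane proteins and lysosomal enzymes. All 30 were found among the 14506 genes that the arrays measure with a probe set of 1 gene symbol. A gene with several probe sets was read from the brightest by its mean over the arrays.

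The 3 groups compared were rats labelled strain Brown and aged 7 weeks. In group DN the muscle was denervated, and group TS was suspended by the tail so that the hind limbs bore no load. Group Ct had neither procedure. All 3 groups were irradiated over 2 weeks to 50 mSv in total, so every difference below is one between irradiated muscles, and an unirradiated group was not analysed here. The labels give neither the nerve that was cut nor the time from denervation or suspension to sampling. Each group's RNA, from 6 rats, was combined and put on 1 Affymetrix Rat Gene 1.0 ST array (the series text speaks of 2 arrays for the study, and 3 were analysed here). A single array per group gives no spread between animals and no test, so each difference describes these pools, and no p-value is given.

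Autophagy encloses cytoplasm in a double membrane, the autophagosome, and delivers it to the lysosome for breakdown. A kinase complex around Ulk1 starts the process, a lipid kinase complex of Pik3c3 and Becn1 marks the membrane, and a conjugation system that includes Atg5, Atg7 and Atg12 couples Atg8 proteins such as Map1lc3b to it. Receptors such as Sqstm1 and Bnip3 tether cargo to these Atg8 proteins, and cathepsins and other acid hydrolases digest what arrives. In muscle this route works beside the proteasome, and it is known for clearing mitochondria and proteins during atrophy.

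Values are log2 RMA values, a summary of the several short probes of a probe set, so a difference of 1 is a change by a factor of 2. The labelled tissue fitted its markers. Myh7, the slow myosin heavy chain, read 13.06 in DN and 13.24 in TS, against 13.62 in Ct, and the muscle actin Acta1 read 13.90, 13.99 and 13.99 in the same order. For Acta1, 13.99 is also the highest value on the arrays. Another listed muscle gene, Ckm, was not level and read 12.24 in DN and 13.30 in TS, against 13.36 in Ct. Chrng, the fetal acetylcholine receptor subunit that denervated muscle makes, read 11.64 in DN and 7.08 in TS, against 6.88 in Ct. All 4 listed denervation genes were higher in DN than in Ct. In TS they went both ways, with Runx1 and Myog higher by 1.99 and 1.42 and Chrna1 lower by -1.31. Over the 10154 genes bright enough to compare, the median of the array was 8.13 in DN and 8.25 in TS, against 8.12 in Ct, and centring the arrays on these medians lowers every TS minus Ct difference by 0.13. Gene by gene, the median difference from Ct was 0.00 in DN and 0.02 in TS. All 30 members passed the filter on dim genes, a mean over the 3 arrays of at least 5.72, and all 30 also lay in the brighter 50% of genes.

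Few members passed 1.5-fold in either comparison with Ct. In DN more of them read above Ct than genes in general, 17 of 30 (56.7%) where 32.8% of the genes compared did. In DN 4 members (13.3%) read below Ct, where 24.3% of the genes compared did. With the arrays centred, 16 of 30 (53.3%) read above Ct in DN, where 31.9% of the genes compared did. These shares were not matched for brightness: all members lay in the brighter 50% of genes, and no share among such genes was counted. Equal values bear on them too, since 9 members and 42.9% of the genes compared were equal in DN and Ct. Centring places such genes below Ct. With the members also chosen knowing earlier results, the excess in DN is not independent evidence. Shares for smaller sets below were not matched either. One member was at least 1.5-fold higher in DN than in Ct, the protease gene Ctsl, and 1 was at least 1.5-fold lower, the autophagosome factor Wipi1. Of the genes compared, 4.93% were at least 1.5-fold higher in DN and 5.53% lower (10.5% in either direction), so the members' 2 of 30 (6.67%) is no larger a share than the background. In TS the one member past this limit was again Ctsl, 1 of 30 (3.33%), where 5.89% of the genes compared were at least 1.5-fold higher and 2.68% lower (8.57% in either direction). No member differed 2-fold in either comparison. In the plot of difference sizes the members' curve ends earlier than that of all genes, which a smaller set tends to do anyway. The median size of a difference was 0.09 in the members and 0.03 over the genes compared in DN. In TS it was 0.13 and 0.12.

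Over the 30 members the median difference from Ct was 0.02 in DN, with a range of -0.88 to 0.67, and 0.01 in TS, with a range of -0.40 to 0.66. Both comparisons use the one Ct array, so their likeness is not independent information. Under centring of the arrays the TS median was -0.13, and it was also below 0 with an expression trend removed (-0.02) and with quantile normalization (-0.01). Over the genes compared the TS median was -0.12, -0.02 and -0.02 under the same scalings, so the members moved much as genes in general did. Over all genes, too, the balance of directions in TS hung on the scaling, with 598 genes at least 1.5-fold higher and 272 lower as deposited, against 357 higher and 400 lower after centring.

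**Figure D1:**
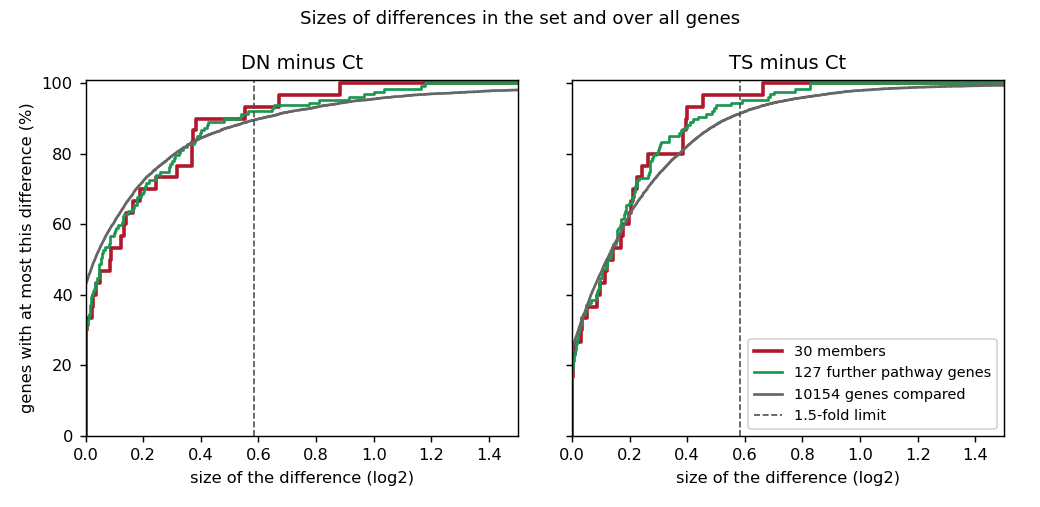
Share of genes (vertical axis, %) whose difference is at most the size on the horizontal axis (log2), for DN minus Ct on the left and TS minus Ct on the right. The 30 members (red) and 127 further pathway genes (green) end below 1.2, whereas the 10154 genes compared (grey) run on past the axis; the dashed line is the 1.5-fold limit.

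A limited yardstick, the disagreement between probe sets of one gene, came from 401 genes read by at least 2 probe sets that passed the filter. Their 2 probe sets disagreed on DN minus Ct by a median of 0.03, with a 95th percentile of 0.33, and on TS minus Ct by a median of 0.11, with a 95th percentile of 0.73. For DN minus Ct, 7 of the 30 members differed by more than that 95th percentile, namely Wipi1, Bnip3, Ctsl, Ctsh, Atg7, Lamp2 and Ctsk (23.3%), against 18.7% of the genes compared. For TS minus Ct none did, Ctsl included, against 5.13% of the genes compared. This disagreement is between probe sets on the same arrays and says nothing of how much rats vary. It also leaves out any error that both probe sets share, so it is not the full technical error. Equal values can lower it, and 42.9% of the genes compared were equal in DN and Ct, against 24.7% in TS and Ct. The limits of the 2 comparisons are therefore not alike.

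Equal values limit what a difference of 0 means. RMA on few arrays can return the identical value for several arrays, and 5 members (Lamp1, Gla, Hexa, Npc2 and Psap) carried one value on all 3, as did 20.5% of the genes compared. Another 4 members (Ulk1, Atg5, Atg12 and Gabarapl1) were equal in DN and Ct. For these 9 genes the data do not show that the transcript did not differ.

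Among the other members, 13 read higher than Ct on both the DN and the TS array, 4 read lower on both (Wipi1, Bnip3, Ctsd and Gaa), and 4 read higher in DN but lower in TS (Gabarap, Bnip3l, Ctsh and Lamp2). The share of all genes with each order was not counted, and the one Ct array enters both readings. The 13 include Sqstm1 and Map1lc3b, above Ct in TS by only 0.01, and Ctsz, above it in DN by only 0.01. The dimmer probe set of Map1lc3b read below Ct in TS. The TS directions hung on the scaling: 16 of 30 members (53.3%, against 52.6% of the genes compared) read above Ct as deposited, 9 (where 34.9% of the genes compared did) after centring and 12 under quantile normalization, as also once an expression trend was taken out. Most of these differences were small, and the plot of values by array shows how closely the 3 arrays lie for most genes.

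**Figure D2:**
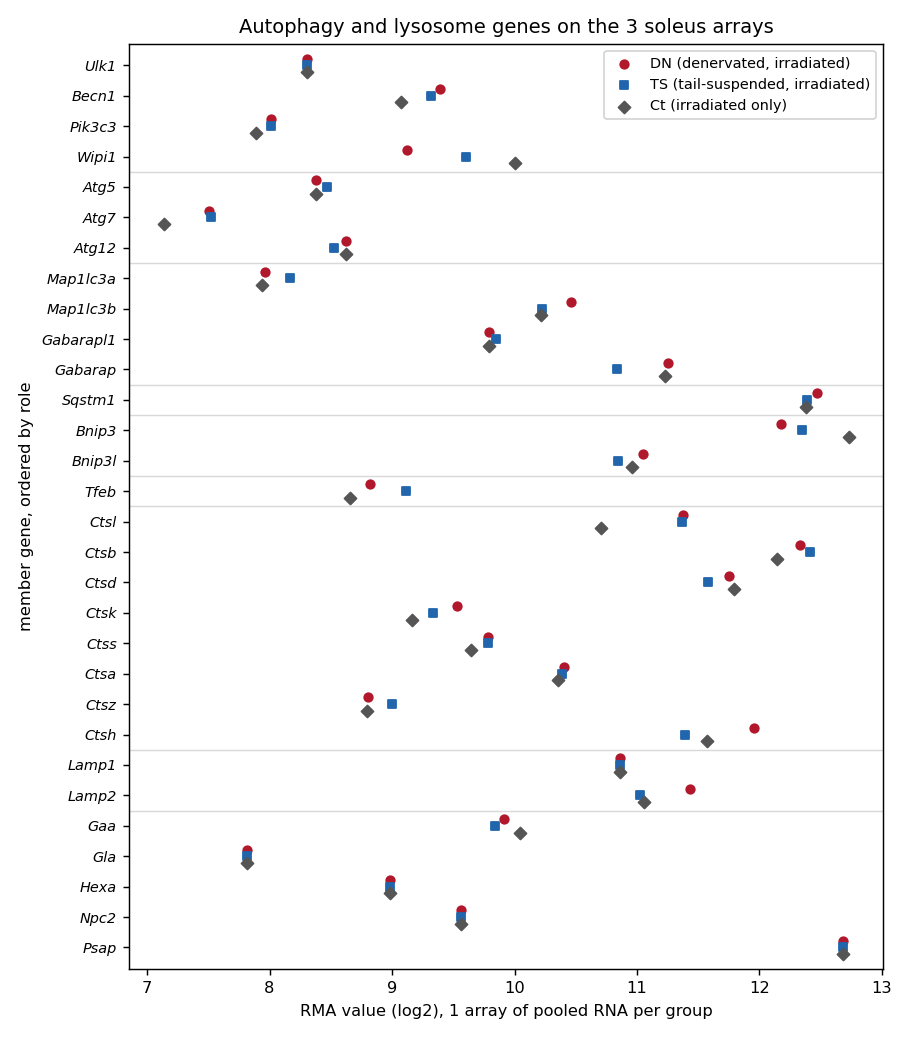
RMA value (log2, horizontal axis) of each of the 30 members on the DN array (red circle), the TS array (blue square) and the Ct array (grey diamond), with genes ordered by role and grey lines between roles. The widest gaps are those of Wipi1 and Ctsl, and 5 members show one value on all 3 arrays.

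Tfeb drives many lysosomal genes through a CACGTG-centred element, so the promoters of the members were searched for those letters. RefSeq promoters of assembly GRCr8, 250 bases before to 50 bases after the start, were matched by symbol for 24 of the 30 members. The motif CACGTG, which reads the same on both strands, was found in 5 of 24 (20.8%), against 7.08% of 27457 genes with a promoter in the same table and 9.65% of the 8422 of them that passed the filter on these arrays. The longer form TCACGTG, searched on both strands and overlapping the first by definition, was found in 3 of 24 (12.5%), against 3.58% of all and 5.56% of those past the filter. These are counts of letters, not of bound sites.

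The stretches below, all upstream of the start and written 5′ to 3′ along the gene, are shown because they set Lamp1, Ctsd and Gaa, which hold the longer form, and Bnip3, which holds the shorter, beside Ctsl and Wipi1, the members with the largest differences, whose windows hold neither. Capitals mark CACGTG.
Lamp1, chr16:83075090-83075253, minus strand: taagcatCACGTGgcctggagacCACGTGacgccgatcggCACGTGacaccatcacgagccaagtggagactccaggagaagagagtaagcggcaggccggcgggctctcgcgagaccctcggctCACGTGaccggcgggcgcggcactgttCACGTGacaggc
Ctsd, chr1:206968961-206968990, minus strand: tctttcttccccCACGTGactcgcatccag
Ctsd, chr1:206968822-206968851, minus strand: tccgcccctcgcccgcgtctCACGTGaccc
Gaa, chr10:105028276-105028305, plus strand: ccgcccacaaacCACGTGacccacgctgcc
Bnip3, chr1:203155044-203155073, minus strand: gcgcacgcgccgCACGTGccacacgcgccc
Ctsl, chr17:770004-770103, plus strand: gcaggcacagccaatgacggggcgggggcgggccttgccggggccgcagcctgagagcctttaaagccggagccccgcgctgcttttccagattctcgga
Wipi1, chr10:95079294-95079393, minus strand: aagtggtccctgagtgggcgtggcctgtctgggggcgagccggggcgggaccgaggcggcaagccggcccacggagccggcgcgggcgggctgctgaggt
Lamp1 held the motif 5 times and read the same on all arrays, but an equal value does not show that its transcript did not differ. Ctsd held the motif in 2 places and read 11.75 in DN and 11.58 in TS, against 11.79 in Ct. Gaa held it once and read slightly lower in both groups than in Ct. The remaining member with a match was Atg5, with 1. Ctsl, Wipi1 and the other members with a promoter held no CACGTG in this window, and nothing about binding is drawn from that.

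At the start of the pathway, Wipi1 stood apart from its neighbours. Wipi1, which binds the lipid that Pik3c3 makes and recruits further factors to the forming membrane, read 9.12 in DN and 9.61 in TS, against 10.004 in Ct. The value was lowest in DN and between the others in TS. DN lay below Ct by a difference of -0.88, so that Ct was 1.84-fold higher, and TS lay below it by -0.40. The DN difference kept its side of the 1.5-fold limit, from -0.89 to -0.85, under the 4 alternatives that can move a gene of 1 probe set, namely 3 scalings and an offset. In bulk muscle, fewer cells of a type and less RNA per cell cannot be told apart, here or in what follows.

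The other initiation genes read at or above Ct as deposited, and in TS that hung on the scaling. Becn1, the partner of the lipid kinase, read 9.39 in DN and 9.31 in TS, against 9.07 in Ct, higher by 0.318 and 0.24. Pik3c3, the kinase itself, read 8.01 in DN and 8.01 in TS, against 7.89 in Ct. Ulk1, the starting kinase, read 8.30 in DN and 8.31 in TS, against 8.30 in Ct. With the arrays centred, the TS difference of Pik3c3 was -0.01 and that of Ulk1 -0.13, so that 3 of the 4 initiation genes, Wipi1 included, lay below Ct in TS and 1 above. Ulk1 was also below Ct in TS under the other 2 scalings, by -0.09 in each.

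Of the conjugation genes, Atg7 read higher in both groups. Atg7, the enzyme that activates Atg8 proteins and Atg12, read 7.51 in DN and 7.52 in TS, against 7.14 in Ct, which made it 1.29-fold higher in DN and 1.31-fold higher in TS. Atg5, part of the complex that attaches Atg8 proteins to lipid, read 8.38 in DN and 8.47 in TS, against 8.38 in Ct, and its partner Atg12 read 8.63 in DN and 8.53 in TS, against 8.63 in Ct. In TS both depended on the scaling: the difference of Atg12, -0.10 as deposited, was -0.23 with the arrays centred, -0.19 after removal of the expression trend and -0.20 under quantile normalization, and that of Atg5, 0.09 as deposited, was below 0 under all 3 (lowest -0.05).

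The 4 Atg8 genes, whose products coat the autophagosome, did not move together. Gabarap read 11.25 in DN and 10.84 in TS, against 11.23 in Ct, so that TS was the low array (-0.40) and DN was level with Ct (0.02). Map1lc3a read 7.97 in DN and 8.17 in TS, against 7.94 in Ct, with TS the high array. Gabarapl1 read 9.79 in DN and 9.85 in TS, against 9.79 in Ct. Within each pair, Map1lc3a with Map1lc3b and Gabarap with Gabarapl1, the genes are closely related, so their probe sets may share signal.

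Map1lc3b, the most used marker of autophagosomes, has 2 probe sets that agree on DN only. The brighter read 10.46 in DN and 10.22 in TS, against 10.21 in Ct, and the dimmer 9.41 in DN and 8.63 in TS, against 9.06 in Ct. Both put DN above Ct, by 0.25 and 0.35. For TS the brighter gave 0.01 and the dimmer -0.43, so no direction can be given for TS.

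Sqstm1, the receptor p62 that carries ubiquitin-tagged cargo, was level across the groups, at 12.47 in DN and 12.38 in TS, against 12.38 in Ct. These readings lie in the upper part of the range of the arrays.

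Of the 2 mitophagy receptors, Bnip3 read lower in both groups and its relative Bnip3l did not. Bnip3, an outer-membrane protein of mitochondria that binds Atg8 proteins, read 12.18 in DN and 12.35 in TS, against 12.73 in Ct by its brighter probe set. The dimmer probe set read 11.63 in DN and 11.94 in TS, against 12.38 in Ct. Both probe sets gave the same order, with Ct highest and DN lowest. DN minus Ct was -0.55 on the brighter, short of 1.5-fold, and -0.75 on the dimmer, past it, and their mean (-0.65) was past it too. TS minus Ct was -0.39 and -0.44. Bnip3l, also called Nix, read 11.05 in DN and 10.85 in TS, against 10.96 in Ct.

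**Figure D3:**
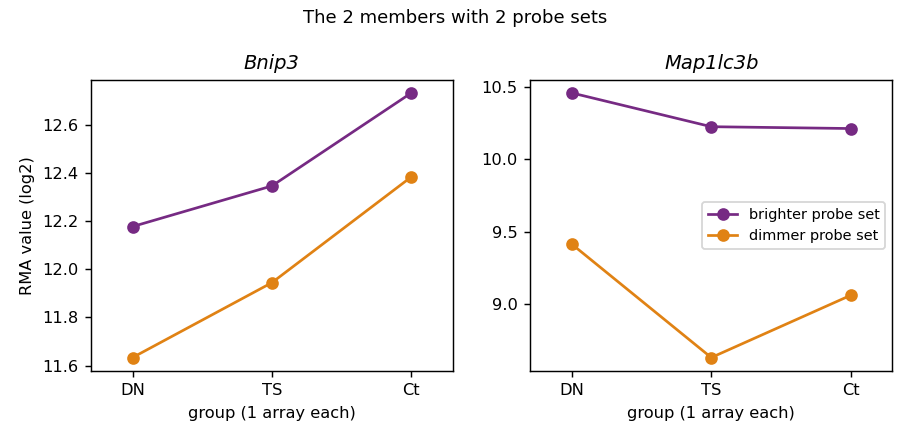
RMA value (log2, vertical axis, which does not start at 0) of both probe sets of Bnip3 (left) and Map1lc3b (right) on the DN, TS and Ct arrays; lines join the values of a probe set. For Bnip3 both probe sets run lowest in DN and highest in Ct, whereas for Map1lc3b the dimmer one falls below Ct in TS and the brighter does not.

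Tfeb, which activates genes of autophagy and lysosomes, read 8.82 in DN and 9.11 in TS, against 8.66 in Ct. TS was the high array, 1.37-fold above Ct, and centring left 0.32 of its difference of 0.46. DN was higher than Ct by 0.17.

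Among the 8 cathepsins, the digestive proteases of the lysosome, Ctsl was the one past 1.5-fold. Ctsl read 11.38 in DN and 11.37 in TS, against 10.71 in Ct. Both groups lay above Ct by nearly the same amount, 1.59-fold in DN and 1.58-fold in TS, and DN minus TS was 0.01. In DN its difference of 0.67 was 0.66 under the 4 alternatives that can move it. In TS its difference of 0.66 was 0.53 with the arrays centred, under the 1.5-fold limit, and lay past the limit under the other 3 of those 4.

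Of the 8 cathepsins, 7 read above Ct in DN, with a median of 0.16, or 6 after centring. Over the genes compared, 32.8% read above Ct in DN, 24.3% below and 42.9% equal to it. In TS, 6 of the 8 read above Ct, with a median of 0.16, where 52.6% of the genes compared did. After centring, 5 of the 8 read above Ct in TS, with a median of 0.02, where 34.9% of the genes compared did. Ctsk, a protease that cleaves collagen, read 9.53 in DN and 9.33 in TS, against 9.16 in Ct, with DN 1.29-fold above Ct. Ctsb, abundant in many cells, read 12.33 in DN and 12.41 in TS, against 12.15 in Ct, a difference of 0.19 and of 0.27. Ctss, known from antigen-presenting cells, read 9.78 in DN and 9.78 in TS, against 9.64 in Ct. Apart from Ctsl, only Ctsk and Ctsh differed from Ct by 0.322 (log2) or more in DN, and no other cathepsin did in TS.

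Ctsh split the 2 treatments. This aminopeptidase gene read 11.96 in DN and 11.39 in TS, against 11.57 in Ct, so DN was the high array and TS the low one. DN lay 1.31-fold above Ct and 1.48-fold above TS, the largest DN minus TS difference of the set (0.56), and it crossed 1.5-fold only with the arrays centred (0.69). Ctsd, the aspartic protease of lysosomes, stood lower in TS (-0.21) and about level in DN (-0.04). Ctsz read 8.80 in DN and 8.999 in TS, against 8.80 in Ct, and Ctsa, which also protects other lysosomal enzymes, read 10.41 in DN and 10.39 in TS, against 10.35 in Ct.

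Macrophages are rich in lysosomes, and their markers were not level across the pools. Of 15 measured macrophage markers, 12 read above Ct in DN, where 32.8% of the genes compared did. None was 1.5-fold higher in DN, where 4.93% of the genes compared were, and the median was 0.13. All 15 read above Ct in TS, where 52.6% of the genes compared did. In TS 5 of them were at least 1.5-fold higher, where 5.89% of the genes compared were, and the median was 0.55. With the arrays centred, 12 of the 15 read above Ct in TS and 3 below, where 34.9% of the genes compared read above. After centring 2 markers were at least 1.5-fold higher in TS and the median was 0.42. Of the 10154 genes compared, 357 were that much higher after centring, and their median was -0.12. As deposited, their summed linear signal was 8853 in DN and 11122 in TS, against 8075 in Ct. The lowest marker read 6.58 in DN and 6.58 in TS, against 6.56 in Ct, all above the filter limit, and Cd68, itself a lysosomal protein, read 8.36 in DN and 8.80 in TS, against 8.23 in Ct. The part of these cells in the cathepsin readings was not tested.

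Few differences could be read among the lysosomal membrane proteins and enzymes, since 5 of them carried a single value on all 3 arrays. Lamp2, a membrane glycoprotein needed for fusion with autophagosomes, read 11.43 in DN and 11.03 in TS, against 11.06 in Ct, so DN alone stood off, 1.29-fold above Ct. Lamp1, its relative, read 10.86 on all 3 arrays. Gaa, the acid glucosidase that breaks down glycogen and is deficient in Pompe disease, read 9.91 in DN and 9.84 in TS, against 10.04 in Ct, lower by less than 0.322 (log2) in both. The other enzymes and helper proteins, Gla (7.82), Hexa (8.99), Npc2 (9.56) and Psap (12.68), carried a single value on all 3 arrays.

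**Figure D4:**
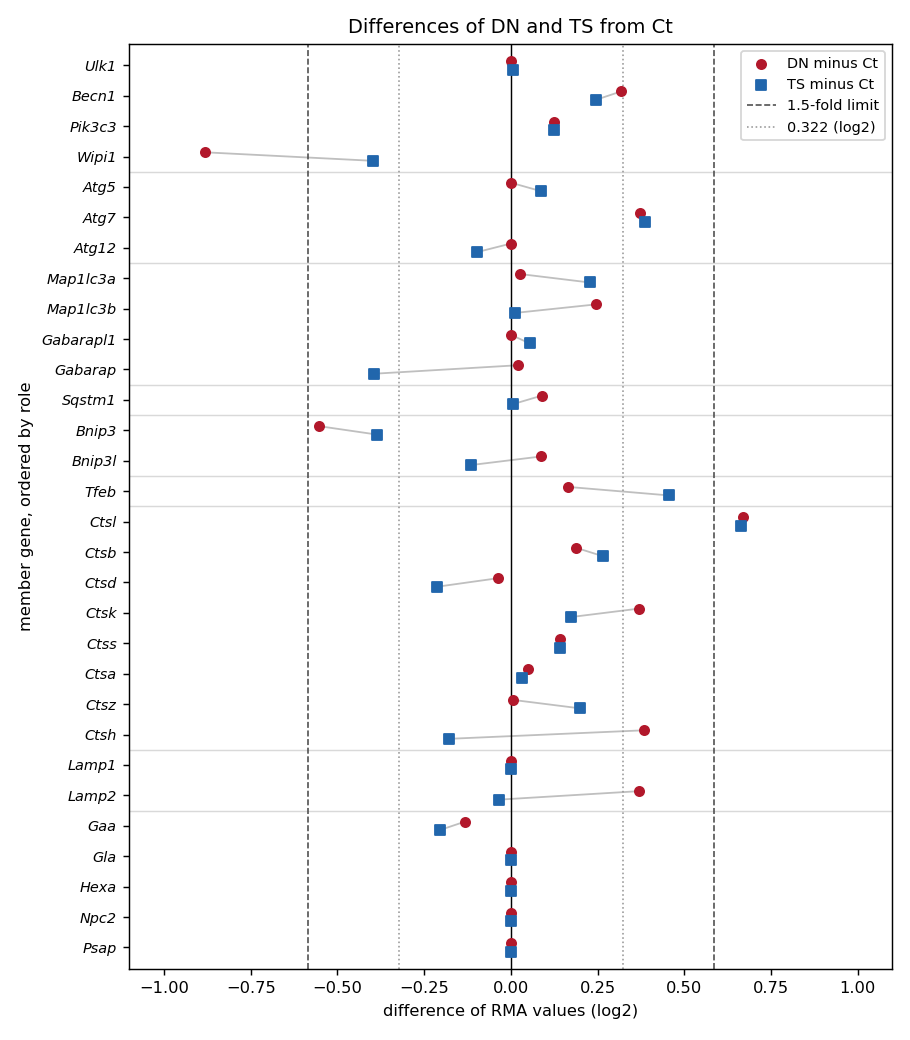
Difference from Ct (log2, horizontal axis) of each member in DN (red circle) and TS (blue square), joined by a grey line, with dashed lines at 1.5-fold and dotted lines at 0.322. Ctsl lies right of the upper dashed line in both groups, Wipi1 lies left of the lower one in DN, and the other members lie between them.

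A looser limit did not set the members apart. At a difference of 0.322 (log2), 5 members were higher in DN (Atg7, Ctsl, Ctsk, Ctsh and Lamp2) and 2 lower (Wipi1 and Bnip3), 7 of 30 (23.3%). Of the genes compared, 9.71% were higher and 9.57% lower by that much (19.3% in all). In TS, 3 members were higher (Atg7, Tfeb and Ctsl) and 3 lower (Wipi1, Gabarap and Bnip3), 6 of 30 (20.0%). There 17.4% of the genes compared were higher and 6.62% lower (24% in all).

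Set directly against each other, DN and TS differed by less than 1.5-fold for every member by its brightest probe set, where 3.2% of the genes compared were at least 1.5-fold higher in DN and 5.93% lower (9.13% in either direction). At a difference of 0.322 (log2), Ctsh, Gabarap and Lamp2 were higher in DN (0.56, 0.42 and 0.41) and Wipi1 lower (-0.48), 4 of 30 (13.3%). Of the genes compared, 7.1% were higher and 16.8% lower by that much (23.9% in all). By the brighter probe set, all 30 lay within 0.76, the 95th percentile of disagreement between probe sets for this comparison, which 5.36% of the genes compared passed. The dimmer probe set of Map1lc3b lay past it, at 0.78 (1.72-fold higher in DN), and the mean of both its probe sets gave 0.51, against 0.23 by the brighter one.

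The wider pathway was read from 157 further genes on 9 lists, of which 127 were measured and 124 passed the filter. In DN, 7 of those 124 were at least 1.5-fold higher and 3 lower, 10 in all (8.06%), against 10.5% of the 10154 genes past the filter. In TS, 4 were higher and 3 lower, 7 of 124 (5.65%), against 8.57%. The median over the 124 was 0.00 in DN and 0.04 in TS. By direction, 4.93% of the 10154 genes were higher and 5.53% lower in DN, and 5.89% and 2.68% in TS. Pooled, the lists held no larger a share past the limit than these genes, so the genes named below are single cases.

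A sorting receptor and a membrane protein of lysosomes were high in both groups. Sort1, the sorting receptor sortilin, read 9.14 in DN and 8.81 in TS, against 7.98 in Ct, 2.24-fold and 1.77-fold above it. Cd63, a membrane protein of late endosomes, read 11.34 in DN and 11.12 in TS, against 10.34 in Ct. In both genes DN was the highest array and Ct the lowest. Of 14 measured genes on that list, 2 passed 1.5-fold upward in each comparison and none downward. Upward, 4.93% of the genes compared passed it in DN and 5.89% in TS.

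Some early factors and a receptor were high in DN. Vmp1, a membrane protein needed to form autophagosomes, read 10.41 in DN and 9.67 in TS, against 9.23 in Ct, 2.26-fold higher in DN. Averaging its probe sets lowered that difference from 1.18 to 0.68. Pik3r4, the scaffold of the Pik3c3 complex, was higher by 0.78 in DN and 0.40 in TS. Vmp1 and Pik3r4 were the 2 of 14 initiation genes past 1.5-fold in DN, with none in TS. In DN 4.93% of the genes compared were higher by that much. Calcoco1, a receptor for autophagy of the endoplasmic reticulum, read 11.11 in DN and 10.23 in TS, against 10.07 in Ct, with DN alone standing off.

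The receptor list went both ways, with 7 of 12 above Ct and 4 below in DN, and 8 above and 2 below in TS. Nbr1, which like Sqstm1 binds ubiquitin-tagged cargo, read 10.82 in DN and 9.93 in TS, against 10.61 in Ct, so that TS alone was low (-0.68). Phb2, a protein of the inner mitochondrial membrane, was lower by -0.65 in DN and -0.42 in TS. On the cargo receptor list, 1 of 12 was at least 1.5-fold higher in DN and 1 lower, and in TS none was higher and 1 lower. The shares over the genes compared were 4.93% higher and 5.53% lower in DN, and 5.89% and 2.68% in TS.

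Lysosomal hydrolases went both ways. Manba, a mannosidase, read 8.56 in DN and 8.28 in TS, against 7.60 in Ct, and Galc, which cleaves galactosylceramide, read 7.19 in DN and 7.08 in TS, against 6.38 in Ct. Hyal1, a hyaluronidase, was low in both, at 8.85 in DN and 8.94 in TS, against 9.76 in Ct. Asah1, the acid ceramidase, was lower in TS by -0.59 and higher in DN by 0.17. Of 21 measured hydrolases, 2 were at least 1.5-fold higher and 1 lower in DN, and 2 were higher and 2 lower in TS. Over the genes compared, 4.93% were higher and 5.53% lower in DN, and 5.89% and 2.68% in TS. The TS differences of Manba and Galc were as low as 0.55 and 0.54 over 5 alternatives and past 1.5-fold in 4 and 3 of them.

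The remaining lists held few genes past 1.5-fold in the comparisons with Ct. Among 21 nutrient sensing genes only Flcn, a regulator that keeps Tfeb-family factors out of the nucleus when nutrients abound, was past 1.5-fold, at -0.65 in DN. No gene passed it in either comparison among 17 subunits of the proton pump that acidifies lysosomes, 12 fusion genes, 10 further proteases and inhibitors and 6 conjugation genes. Of the genes compared, 10.5% passed it in either direction in DN and 8.57% in TS, so little can be read from such counts on lists this small. Between DN and TS, 3.2% of the genes compared were at least 1.5-fold higher in DN and 5.93% lower. Of the 127 further genes, 4 were that much higher in DN (Nbr1, Calcoco1, Asah1 and Vmp1) and 2 lower. Those 2, named after their values were seen, were Prkaa2, a catalytic subunit of the energy-sensing kinase AMPK (-0.76), and Nrbf2, a part of the Pik3c3 complex (-0.67). The difference of Nrbf2 lay past 1.5-fold in only 2 of 5 alternatives and was as small as -0.54.

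**Figure D5:**
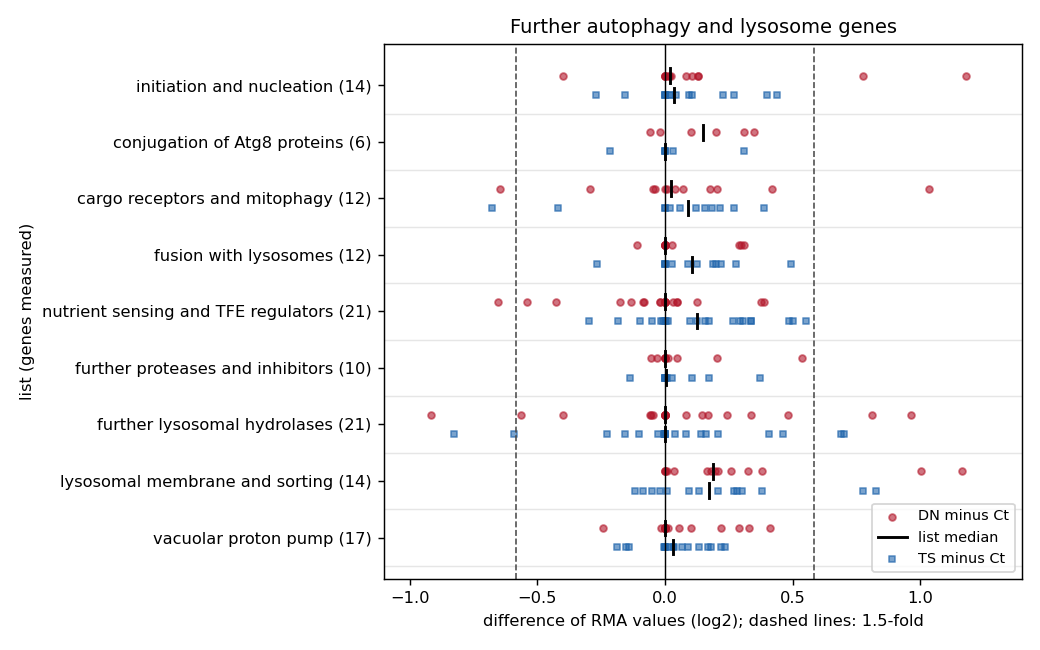
Differences from Ct (log2, horizontal axis) of 127 further autophagy and lysosome genes in DN (red circles) and TS (blue squares), one row per list with the number of genes measured in brackets; black bars are list medians and dashed lines mark 1.5-fold. List medians lie between 0.00 and 0.19, and 5 of the 9 lists have a gene past 1.5-fold.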

How the data were processed

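The authors made the deposited log2 values with Affymetrix Expression Console by RMA in a core-exon analysis, per the labels' descriptions and the submitters' processing notes; the log base was read from the values. Its version, like the build and gene models behind the probe sets, is not given in the sources used here. The platform annotation gave 1 symbol to 15310 of 29170 probe sets; 15279 of these were found by gene identifier in a GRCr8 table and 0 symbols changed.

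Genes at or above the 30th percentile of the mean over 3 arrays (5.72) were compared by differences of log2 values and counted at 1.5-fold. The members and lists were chosen with earlier results of these data known. Named genes were all members and, per further list, up to 4 genes past 1.5-fold in each comparison with Ct. Marker lists of 11 cell types and states were read alongside. Planned protein identities were not computed, since protein sequences were not used here. Precision is limited by 1 array per group. The code was tested on made-up arrays with known shifts. Alternatives were 3 scalings, an offset of 32, averaged or single probe sets, 2 filters and limits of 0.322 (log2) and 2-fold; leaving out equal values was chosen after seeing the data. Python 3.11.15, numpy 2.4.6, pandas 2.3.3, statsmodels 0.14.6 and matplotlib 3.10.9 were used.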

Additional observations from a re-analysis of the deposited data

How the results depend on the processing

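No paired analysis was possible because each group is 1 array of pooled RNA. Of 159 recomputed counts and medians, 126 stayed within 1.5 times the reported count or, for medians, within 0.1 of it with no change of sign; many of these could not move, since 28 members have 1 probe set and all passed both filters. The member median for TS minus Ct (0.01) was -0.13 with the arrays centred, -0.021 with the expression trend removed and -0.012 after quantile normalization. Over the genes compared it was -0.12, -0.018 and -0.018. For DN minus TS (0.00) the member median was 0.13 when centred, where that of the genes compared was 0.12. With the arrays centred, members higher in TS than Ct numbered 0 (reported 1), further genes higher in TS 2 (4), members higher in DN than TS 1 (0) and further genes lower in DN than TS 1 (2). That last count was also 1 with the trend removed, with quantile normalization and with single-probe-set genes. Averaging probe sets gave 2 members lower in DN than Ct (1), the added one being Bnip3. At a limit of 0.322 (log2), 5 members were higher and 2 lower in DN than Ct, 3 and 3 in TS than Ct, and 3 and 1 in DN than TS. Of the 127 further genes 18 were higher and 8 lower in DN than Ct, 17 and 4 in TS than Ct, and 11 and 11 in DN than TS. Over the genes compared, the shares higher and lower were 9.71% and 9.57% in DN than Ct, 17.4% and 6.62% in TS than Ct, and 7.1% and 16.8% in DN than TS. At 2-fold, 4 further genes were higher and 0 lower in DN than Ct, and 0 members and 0 further genes passed in the other comparisons or directions that had any at 1.5-fold. Without equal values the member median for DN minus Ct was 0.12 over 21 genes (0.02), where that of the genes compared was 0.03. No difference of a member past 1.5-fold changed sign. Signal over background could not be judged from summarized values.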

Other observations

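Promoters of the further pathway genes held CACGTG in 26 of 126 genes (20.6%) and TCACGTG in 23 (18.3%), against 9.65% and 5.56% of the genes past the filter. Among those past 1.5-fold, Galc and Cd63 held CACGTG, each in 1 place. The letters in Galc are shown for their place just before the start, with capitals marking the motif.
Galc, chr6:123245562-123245591, GRCr8, minus strand: gggtgccacagtCACGTGacccgcacaatg

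Markers of other cells in the same pools also differed. Endothelial markers had a median of -0.32 in DN and -0.27 in TS relative to Ct (7 measured), tendon markers -1.19 and -1.22 (5 measured), adipocyte markers 0.48 and 0.52 (5 measured), slow fibre genes -0.56 and -0.30 (7 measured) and general muscle genes -0.09 and 0.00 (5 measured). The median was 0.00 in both for fibroblast, Schwann cell, lymphocyte and neutrophil and mast cell markers, and only 1 of 5 lymphocyte markers and 3 of 7 neutrophil and mast cell markers passed the filter on dim genes. Centring the arrays lowers each of these TS values by 0.13. The 4 denervation response genes had a median of 3.63 in DN and 0.81 in TS, where 3 read above Ct and 1 below (-1.31 to 1.99). Medians of other lists also hid markers of the opposite direction, here as deposited. The tendon marker Scx was higher in DN (0.62, 4 of 5 lower) and the adipocyte marker Fabp4 lower in TS (-0.43, 4 of 5 higher). Of 5 fibroblast markers in TS, 3 read above Ct and 1 below, from -0.15 to 0.81. General muscle genes ranged from -1.12 (Ckm) to 0.09 in DN and from -0.34 to 0.35 in TS, which their medians near 0 do not show. The part of these shifts in the readings of autophagy and lysosome genes was not tested.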
